A study of Mus musculus with 3 samples.

Results

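Neurotrophic factors are often added to cultures of motor neurons, and they act through receptors. The 9 genes described here encode receptors for BDNF, GDNF and CNTF, 3 of the factors in the supplement mix of this study, and for close relatives of those factors. They were taken by symbol, namely Ret, Gfra1, Gfra2, Gfra3, Gfra4, Ntrk2, Ntrk3, Ngfr and Cntfr, out of 31744 gene symbols, and all 9 were present in each of the 3 single-cell matrices. The cells were mouse embryonic fibroblasts of the genotype Hb9::GFP, a green fluorescent reporter driven by regulatory sequence of a motor neuron gene, in the course of direct conversion to induced motor neurons. All of them had received the LNI cassette, which encodes Lhx3, Ngn2 (with an HA tag) and Isl1, and the DDRR cassette, which encodes HRAS(G12V) and p53DD. One library held Hb9::GFP+ sorted cells at 14 dpi with supplements (BDNF, CNTF, GDNF, FGF and the small molecule RepSox), one held Hb9::GFP+ sorted cells at 14 dpi without supplements, and one held cells at 4 dpi with supplements, sorted for a low level of the CellTrace-FarRed dye. Each group was 1 library, so no test between groups was possible and every interval below covers counting error only. The sort, the dissociation (trypsin at 4 dpi, papain with DNase at 14 dpi) and the time changed together between 4 and 14 dpi, and their parts in any difference cannot be told apart.

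GDNF and its relatives bind a co-receptor of the GFRα family, which has no kinase of its own, and the pair engages the receptor tyrosine kinase RET. GFRα1 prefers GDNF, GFRα2 neurturin, GFRα3 artemin and GFRα4 persephin. BDNF signals through the kinase TrkB, encoded by Ntrk2, with the low-affinity receptor p75NTR, encoded by Ngfr, as a partner. Ntrk3 encodes TrkC, the receptor of neurotrophin-3 rather than of BDNF. CNTF binds CNTFRα, encoded by Cntfr, which has no signalling tail and works with LIFRβ (Lifr) and gp130 (Il6st). Motor neurons of the spinal cord are known to carry receptors for all 3 factors. Counts per gene do not separate full-length TrkB and TrkC from the truncated forms without a kinase.

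After the removal of 153, 177 and 110 barcodes with few genes or many mitochondrial UMIs, 2314 cells remained at 14 dpi with supplements, 3716 at 14 dpi without and 4492 at 4 dpi. The median cell held 14380.5, 10664 and 2312.5 unique molecular identifiers (UMIs, each a counted RNA molecule), so the 4 dpi cells were the shallowest. Pairs of libraries shared 3 to 5 barcodes. Clustering without the receptors and their pathway genes gave 16 clusters. Neuron-like cells made up 61.3% of the library with supplements (1418 cells, mostly cluster 1), 43.0% of the library without (1598 cells, mostly cluster 3) and 0.134% at 4 dpi (6 cells). The most numerous neuron-like cluster thus differed between the 14 dpi libraries, and within clusters 1 and 3 the cell type and the library cannot be told apart. Cluster 8 was neuron-like and held 148 and 438 cells of both. Fibroblast-like cells were 1.38%, 20.2% and 27.6% of the 3 libraries in the same order. Cluster 4, with 945 cells at 4 dpi and 3 and 17 in the 14 dpi libraries, passed the fibroblast score but was left unnamed, since its top 10 genes by fold held a smooth muscle marker, Acta2, and no fibroblast marker; its Gfra1 level at 4 dpi was 140 CPM and it held no Ret UMI there. Of 8 motor neuron markers, 7, 7 and 3 reached 10 CPM in the 3 libraries (summed levels 310, 337 and 250 CPM), and Chat was at 0 at 4 dpi. The 3 at 4 dpi were Slc5a7, Isl1 and Lhx3. Isl1 and Lhx3 are encoded by the LNI cassette, and Mnx1 is the Hb9 gene of the reporter used for the 14 dpi sort. The cassette and the sort can thus raise these counts, and their part was not tested. Levels are given as CPM, the UMIs of a gene scaled to a common total of UMIs in the cells concerned, which for 3′ tags counts molecules irrespective of transcript length.

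RefSeq upstream sequence (build GRCm38.p6) was used for 5 of the 9 receptors, Gfra1, Gfra4, Ntrk2, Ngfr and Cntfr. Any receptor entries on 1 chromosome were left out. The 250 bases before the annotated start are shown for 3 of them that had unlike patterns in these libraries: Gfra1, which was the most abundant receptor at both times, Cntfr, which was high only in the 14 dpi libraries, and Ntrk2, which was scarce in all of them. Capitals mark the motif CANNTG, the E-box, which is the class of site bound by basic helix-loop-helix factors such as Ngn2. The sequences run 5′ to 3′ on the strand of the gene, chr19:58455399-58455648 (minus strand) for Gfra1, chr4:41695454-41695703 (minus strand) for Cntfr, where the first of 6 listed starts was taken, and chr13:58806319-58806568 (plus strand) for Ntrk2.
Gfra1: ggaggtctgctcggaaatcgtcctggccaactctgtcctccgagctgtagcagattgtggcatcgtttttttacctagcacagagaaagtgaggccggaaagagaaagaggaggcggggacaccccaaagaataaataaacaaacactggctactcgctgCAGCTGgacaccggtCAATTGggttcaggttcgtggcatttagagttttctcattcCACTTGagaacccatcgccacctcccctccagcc
Cntfr: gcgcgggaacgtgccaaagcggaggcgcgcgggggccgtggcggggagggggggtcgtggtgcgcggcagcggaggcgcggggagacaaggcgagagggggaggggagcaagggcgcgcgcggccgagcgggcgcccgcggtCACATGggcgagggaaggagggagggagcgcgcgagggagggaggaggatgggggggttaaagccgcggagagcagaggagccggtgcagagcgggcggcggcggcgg
Ntrk2: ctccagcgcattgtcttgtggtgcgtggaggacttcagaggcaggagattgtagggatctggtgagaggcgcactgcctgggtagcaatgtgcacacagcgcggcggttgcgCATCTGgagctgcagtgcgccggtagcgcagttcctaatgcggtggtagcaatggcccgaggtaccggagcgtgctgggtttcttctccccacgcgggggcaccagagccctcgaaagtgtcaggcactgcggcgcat
On either strand Gfra1 held 3 matches, Cntfr 1 (0 to 2 at its other listed starts) and Ntrk2 1, and 66.2% of all 32851 listed windows of this length held at least 1. The match of Ntrk2 reads CATCTG, the reverse complement of CAGATG, a form present on either strand in 14.4% of windows. Searches on both strands for CATATG (3.46% of windows) and for the homeodomain forms TAATTA (4.84%) and TAATTG (7.17%) found no match in these 3 windows. The matches describe the letters only, and no binding was measured.

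Gfra1 was the most abundant of the receptors in each library, and Ntrk2 was at or near the bottom. With supplements at 14 dpi the order by level was Gfra1, Ret, Ntrk3, Cntfr, Gfra3, Gfra4, Gfra2, Ngfr and Ntrk2, from 97.9 to 1.66 CPM. The counting intervals of Cntfr and Gfra3 overlapped, as did those of Gfra2 and Ngfr, while the other neighbours in the order were separate. Without supplements the order was Gfra1, Ret, Cntfr, Ntrk3, Gfra4, Gfra3, Ngfr, Ntrk2 and Gfra2, from 134 to 0.698 CPM, where Ntrk2 overlapped with both Ngfr and Gfra2 and the other neighbours were separate. At 4 dpi Gfra1 (199 CPM) and Gfra3 (16.1 CPM) were the only receptors above 10 CPM, each neighbour from Gfra4 downward overlapped with the next, and Ret was last.

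**Figure D1:**
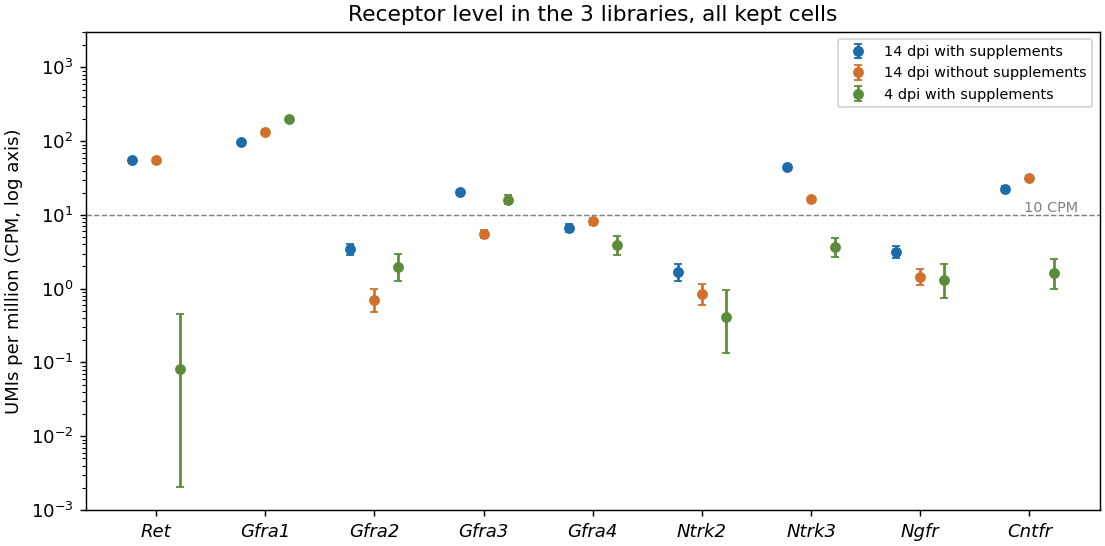
Level of each receptor (CPM, log axis) in the 3 libraries, over all kept cells. Points are sums over a library and bars are exact 95% Poisson intervals of the UMI count. Ret stands at 55.0 and 55.5 CPM at 14 dpi and at 0.0819 CPM, a single UMI, at 4 dpi, whereas Gfra1 lies between 97.9 and 199 CPM in all 3.

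Among the GDNF receptors, the signalling kinase Ret was nearly absent at 4 dpi, while the co-receptor Gfra1 was present at both times. Ret was counted 2022 times in the library with supplements (55.0 CPM, 95% interval 52.6 to 57.4), 2543 times in the library without (55.5 CPM, 53.3 to 57.7) and once at 4 dpi. A Ret UMI was found in 35.7%, 29.4% and 0.0223% of cells. After thinning of every cell to 1000 UMIs these shares were 5.21%, 5.31% and 0 of 4379 cells, the last of which allows a share of cells with a UMI of up to 0.0685% (3 cells of the total), so the gap between the times remained at equal depth. Over all kept cells, Ret at 14 dpi was therefore alike in level with and without supplements. In neuron-like cells its intervals were separate, at 75.6 CPM with supplements (72.1 to 79.2) and 93.2 CPM without (89.1 to 97.5). At 4 dpi Ret was 1 UMI among 4492 cells. Gfra1 went the other way with time: 199 CPM at 4 dpi (191.6 to 207.5), 97.9 at 14 dpi with supplements (94.8 to 101) and 134 without (131 to 138). It was detected in 34.6%, 51.1% and 59.5% of cells, and at 1000 UMIs per cell in 18.2%, 8.72% and 12.1%, so the 4 dpi library had the lowest raw share and the highest share at equal depth, where the shares followed the CPM.

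The other 3 co-receptors were scarcer. Gfra3 was at 20.2 CPM with supplements, 5.52 without and 16.1 at 4 dpi, in 13.0%, 4.41% and 3.52% of cells. Gfra4 stayed under the level of 10 CPM set for calling a difference, at 6.61, 8.18 and 3.85 CPM. Gfra2 was at 3.43, 0.698 and 1.97 CPM, or 126, 32 and 24 UMIs in all.

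Within the libraries, Ret and Gfra1 were distributed differently. In neuron-like cells Ret was at 75.6 CPM with supplements and 93.2 without, and 48.4% and 47.7% of those cells had a Ret UMI. In fibroblast-like cells of the library without supplements it was at 13.7 CPM, in 7.61% of cells, at a median of 9155 UMIs per cell against 10985.5 in the neuron-like cells. The share in fibroblast-like cells was taken as the measure of what free RNA could give, and its part in that share was not tested. Neuron-like cells held 88.3% of Ret UMIs with supplements and 74.6% without, with 64.2% and 44.4% of all UMIs. Cluster 8 had the highest Ret level in both libraries, 133 and 129 CPM, and was also led by Gfra1 (215 and 195 CPM), Gfra4 (13.7 and 18.3 CPM) and Ntrk3 (143 and 71.5 CPM) among the clusters of its own library. Gfra1 on the other hand was spread over all classes, with 59.7% and 50.9% of its UMIs in neuron-like cells, and it was highest of all in the fibroblast-like cells at 4 dpi, at 325 CPM (304 to 348). Cluster 6, a cluster of 684 cells at 4 dpi with the highest Tubb3 (709 CPM) and reporter transcript (794 CPM) of its library, had Gfra1 at 289 CPM and Gfra3 at 26.9 CPM and no Ret UMI. Gfra3 was highest in cluster 9, an unnamed cluster of the library with supplements, at 41.0 CPM. Without supplements it was at 3.39 CPM in fibroblast-like and 3.44 CPM in neuron-like cells, and at 4 dpi it was at 15.4 CPM in fibroblast-like cells.

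**Figure D2:**
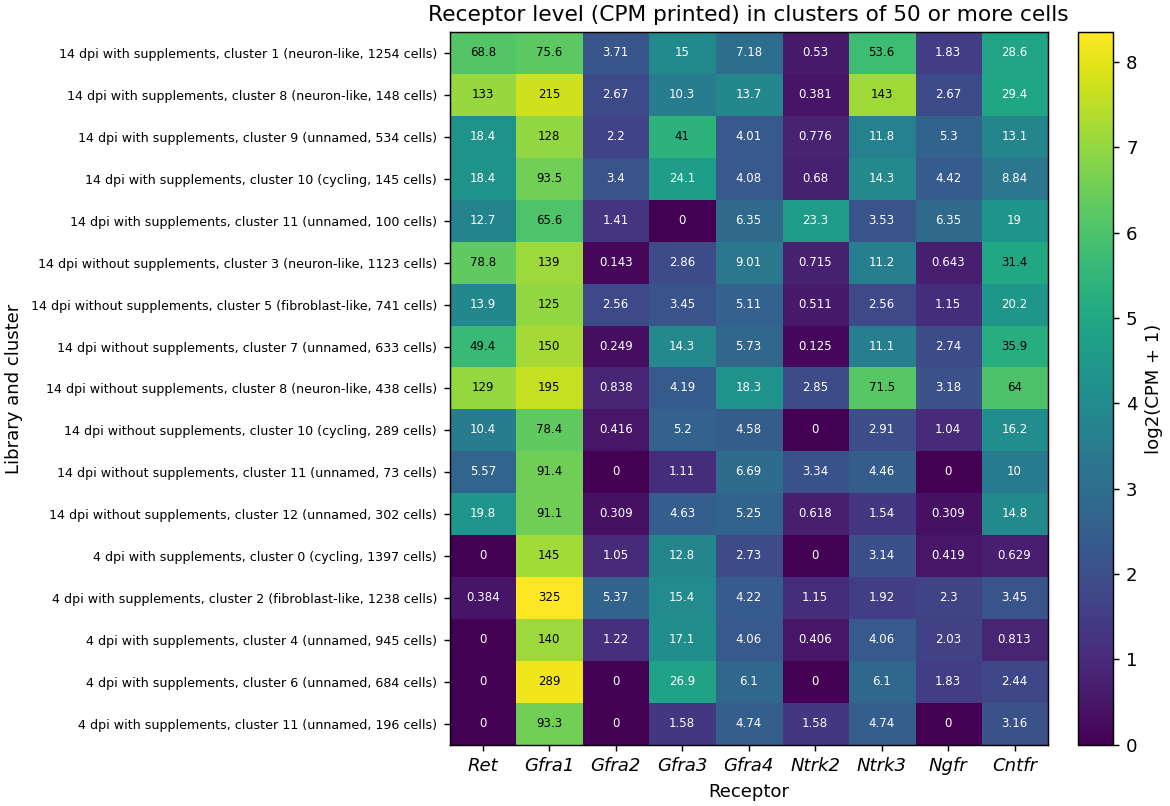
Level of each receptor in every cluster of 50 or more cells of a library. Colour is log2(CPM + 1), the printed number is the CPM, and rows name the library, the cluster, its class and its cells. Ret and Ntrk3 are highest in cluster 8 of both 14 dpi libraries, Gfra1 is above 65 CPM in all 17 rows, and the single row with Ntrk2 above 10 CPM is cluster 11 with supplements, where 1 cell holds 30 of the 33 UMIs.

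Ntrk2, the receptor of BDNF with a kinase, was nearly absent from these libraries. It was counted 61 times with supplements (1.66 CPM, 1.27 to 2.13), 39 times without (0.850 CPM, 0.605 to 1.16) and 5 times at 4 dpi (0.410 CPM, 0.133 to 0.956). Only 0.994%, 0.888% and 0.111% of cells had an Ntrk2 UMI. With supplements 5 cells held 70.5% of the Ntrk2 UMIs, and 1 cell alone held 30, so the level of that library rested on a handful of cells. Of those 61 UMIs, 33 lay in 4 of the 100 cells of cluster 11, which is unnamed, and 30 of these 33 were in that 1 cell. Without supplements the UMIs were spread, with at most 3 in a cell, and 17 of the 39 lay in cluster 8.

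Ngfr, the p75 partner, was at 3.13 CPM with supplements (115 UMIs), 1.46 without (67 UMIs) and 1.31 at 4 dpi (16 UMIs), in 3.72%, 1.56% and 0.312% of cells. With supplements its level was 1.95 CPM in neuron-like cells and 5.30 CPM in cluster 9, so its level in neuron-like cells was below that of the whole library. Ngfr also marks Schwann and neural crest cells, and none of the 8 markers set for those cells reached 10 CPM in a library, with summed levels of 12.0, 8.70 and 6.64 CPM.

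Ntrk3 was the Trk receptor these cells did carry. It was at 45.1 CPM with supplements (1660 UMIs, 43.0 to 47.4), 16.2 without (744 UMIs, 15.1 to 17.4) and 3.69 at 4 dpi (45 UMIs, 2.69 to 4.93), in 29.1%, 10.4% and 0.935% of cells. At 1000 UMIs per cell the shares were 4.12%, 1.46% and 0.434%, in the same order. Neuron-like cells held 90.4% and 81.5% of its UMIs at 14 dpi, and the fibroblast-like cells without supplements had 2.51 CPM. Ret, Ntrk3 and Gfra3 are also known from sensory neurons: the summed level of 6 sensory neuron markers was 296, 62.5 and 37.3 CPM in the 3 libraries, 1 of the 6, Runx1, which other cell types also express, reached 10 CPM in each, Prdm12 was at 0 at 4 dpi, and the part of such cells in the receptor levels was not tested. The genes of the ligands themselves were also read. Bdnf was at 58.2, 58.7 and 48.8 CPM in the 3 libraries, against 0.435, 0.109 and 1.39 CPM for Gdnf and at most 1 UMI a library for Cntf.

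Cntfr was a receptor of the 14 dpi cells, while its signalling partners were present at both times. It was at 22.8 CPM with supplements (837 UMIs, 21.2 to 24.4), 31.3 without (1437 UMIs, 29.7 to 33.0) and 1.64 at 4 dpi (20 UMIs, 1.00 to 2.53), in 25.3%, 26.4% and 0.445% of cells. Lifr was at 14.3, 17.7 and 25.0 CPM and Il6st at 23.2, 33.4 and 22.9 CPM. In neuron-like cells Cntfr was at 28.4 and 41.5 CPM, above Lifr (9.95 and 9.73) and Il6st (19.1 and 24.0). In fibroblast-like cells Cntfr was instead the lowest of the 3: without supplements Cntfr was at 20.6, Lifr at 35.5 and Il6st at 63.5 CPM, and at 4 dpi they were at 3.45, 40.7 and 50.3 CPM. The intervals of the 3 genes did not overlap within any of these 4 classes, apart from Lifr and Il6st at 4 dpi. Cntfr was found in 17.6% of fibroblast-like and 33.6% of neuron-like cells without supplements, a smaller gap than that of Ret (7.61% and 47.7%).

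**Figure D3:**
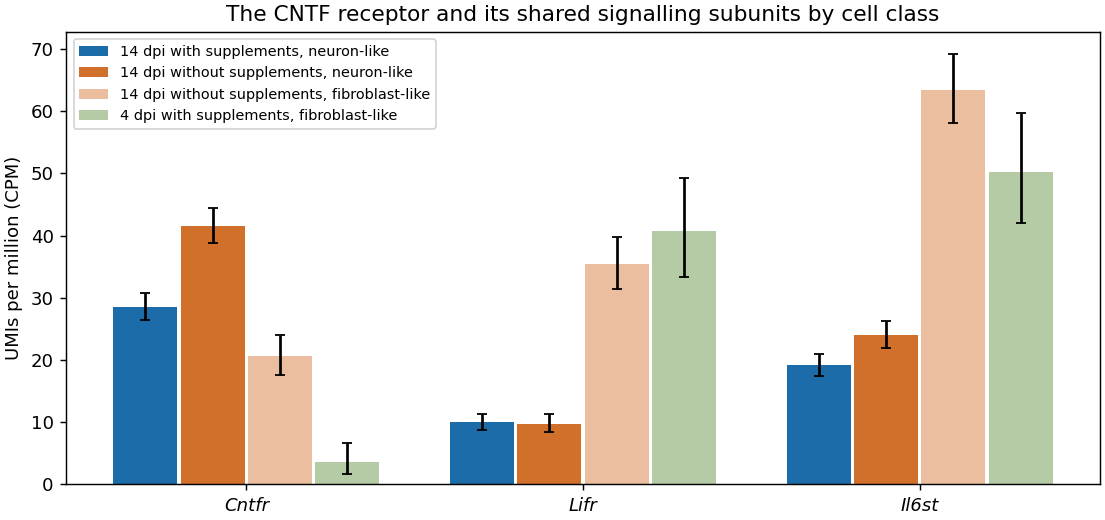
Cntfr and its shared signalling subunits Lifr and Il6st (CPM, bars with exact 95% Poisson intervals) in neuron-like cells at 14 dpi and in fibroblast-like cells at 14 dpi without supplements and at 4 dpi. Cntfr is the highest of the 3 in neuron-like cells, at 28.4 and 41.5 CPM, and the lowest in fibroblast-like cells, at 20.6 and 3.45 CPM.

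The comparison without against with supplements at 14 dpi asks what the absence of the whole supplement mix goes with in these receptors. BDNF, CNTF, GDNF, FGF and RepSox changed together, so their parts in any difference cannot be told apart. Over all kept cells, 2 receptors were lower without supplements and none was higher, by at least 2-fold among genes at 10 CPM or more in either library. Of the receptors, 5 reached that level, and 9.97% of all 9374 genes that did were 2-fold apart (935 genes). The 2 were Gfra3, with a log2 ratio of -1.87 (-2.08 to -1.66), and Ntrk3, with -1.48 (-1.60 to -1.35). Ret was at 0.01 (-0.07 to 0.10), and Gfra1 and Cntfr were both modestly higher without supplements, at 0.46 (0.40 to 0.52) and 0.46 (0.34 to 0.59). Of the 4 receptors under 10 CPM in both libraries, Gfra2 was at -2.30 (-2.90 to -1.73), Ngfr at -1.10, Ntrk2 at -0.96 and Gfra4 at 0.31. Without the 5% of cells with the most UMIs, Ntrk2 was at -0.04. Gfra2 had 126 and 32 UMIs in libraries of 36782509 and 45855979 UMIs.

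The library without supplements held a smaller share of neuron-like cells (43.0% against 61.3%), so the comparison was repeated within them. Of 6 receptors at 10 CPM, the same 2 genes were at least 2-fold lower, Gfra3 at -2.06 (-2.46 to -1.69) and Ntrk3 at -1.09 (-1.23 to -0.96), against a background of 11.4% (1058 of 9282 genes). The interval of Ntrk3 thus reached above the 2-fold line. Gfra1 was at 0.76 (0.68 to 0.84), Gfra4 at 0.58 (0.30 to 0.86), Cntfr at 0.54 (0.40 to 0.69) and Ret at 0.30 (0.21 to 0.40). These values set cluster 1 largely against cluster 3. With neuron-like cells redefined as those with 2 Tubb3 UMIs and no Col1a1 UMI after thinning, Ntrk3 was at -0.66 and no longer 2-fold apart, Gfra3 was at -1.30, and Gfra1 (1.03) and Gfra4 passed 2-fold upward. At a lower clustering resolution only 26 cells with supplements were classed as neuron-like, and the ratio of Gfra3 was 0.99.

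Cluster 8 was the neuron-like cluster with over 100 cells in each library. There Ret (-0.04, -0.23 to 0.15) and Gfra1 (-0.14, -0.29 to 0.01) were alike within counting error. Ntrk3 was again lower without supplements, at 71.5 against 143 CPM, with an interval of -1.20 to -0.80 on the log2 scale. Cntfr was higher without supplements, at 64.0 against 29.4 CPM, a log2 ratio of 1.12 with a lower bound of 0.77. Gfra3 was at -1.30 from 27 and 25 UMIs. In the cycling cluster 10, Ntrk3 (-2.29), Gfra3 (-2.22) and Cntfr (0.88) had the same signs, and Ret was lower without supplements (-0.82, -1.40 to -0.24). Few cells carried these values. With and without supplements, 5 cells held 50% and 50% of 42 and 14 Ntrk3 UMIs, and 53.5% and 72% of 71 and 25 Gfra3 UMIs. For Ret they held 50% and 48% of 54 and 50 UMIs. The intervals take UMIs as independent and do not cover this. Markers moved with these values: in cluster 10 the neuronal tubulin Tubb3 was at 114 CPM without and 457 CPM with supplements and the collagen gene Col1a1 at 549 and 106 CPM, and in cluster 8 Tubb3 was at 1128 and 1750 CPM, Stmn2 at 1287 and 2223 CPM and Col1a1 at 22.6 and 3.81 CPM. Their part in the receptor ratios was not tested. In the unnamed cluster 11 (73 cells without and 100 with supplements) the signs of Cntfr and Ntrk3 were the other way, with overlapping intervals. Cntfr was there at 10.0 CPM without and 19.0 CPM with supplements (9 and 27 UMIs). Ntrk3 was at 4.46 and 3.53 CPM (4 and 5 UMIs), and Gfra3 had 1 and 0 UMIs.

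**Figure D4:**
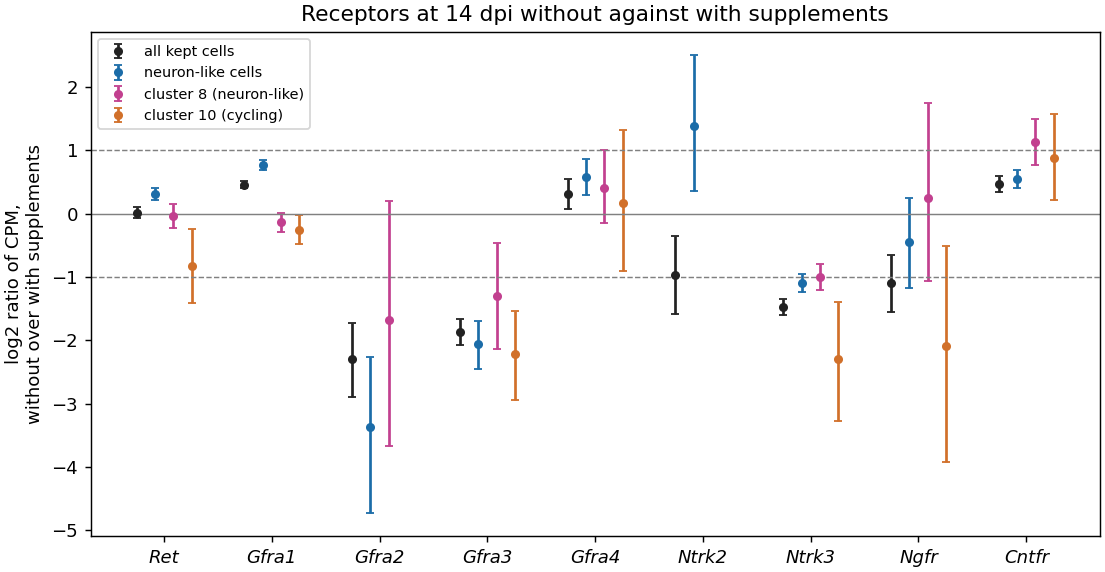
Log2 ratio of CPM at 14 dpi without over with supplements for each receptor, in all kept cells, neuron-like cells, cluster 8 and cluster 10. Bars are 95% intervals from the split of UMIs, dashed lines mark 2-fold, and points with 3 or fewer UMIs on a side are left out. Gfra3 and Ntrk3 lie below 0 in all 4 sets of cells and Cntfr lies above 0 in all 4. Cluster 11, where Cntfr and Ntrk3 had the other sign with overlapping intervals, is not drawn.

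The comparison of 14 dpi with supplements over 4 dpi uses the same 14 dpi library. Of 5 receptors at 10 CPM, 3 were at least 2-fold higher at 14 dpi and 1 was lower, and 25.5% of all genes tested were 2-fold apart (2400 of 9415). Ret had a log2 ratio of 9.39, with an interval of 6.91 to 14.69 because it rests on 1 UMI at 4 dpi. Cntfr was higher by 3.80 (3.16 to 4.51) and Ntrk3 by 3.61 (3.19 to 4.07). Gfra1 was lower, at -1.03 (-1.10 to -0.95), which is just past 2-fold, and was at -0.88 when cells with at least 1000 genes and at most 10% mitochondrial UMIs were used. Gfra3 was at 0.32 (0.09 to 0.56). The median gene was at 0.11.

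Pairing was examined cell by cell, since RET needs a GFRα in the same complex. At 14 dpi with supplements, 67.2% of the 827 cells with Ret had a UMI of a Gfra gene (63.9% to 70.4%), and without supplements 73.9% of 1091 did (71.2% to 76.5%). Gfra1 was the sole Gfra in 37.6% and 55.8% of Ret cells, 2 or more Gfra genes were found in 20.8% and 14.8%, and no Gfra UMI in 32.8% and 26.1%. Cells with both Ret and a Gfra were 24.0% and 21.7% of the 14 dpi libraries and 0 of 4492 at 4 dpi (up to 0.0668% by the same limit), where Ret itself had 1 UMI. Gfra1 without Ret was found in 30.6% and 38.8% of cells at 14 dpi and in 34.6% at 4 dpi. In neuron-like cells Ret with any Gfra was the more frequent of these states, in 32.0% and 36.4% of cells, against 21.2% and 31.5% with Gfra1 and no Ret. Counted for Gfra1 only, the gap was smaller. Gfra1 was found with Ret in 381 and without Ret in 300 of 1418 neuron-like cells with supplements. Without supplements these counts were 555 and 503 of 1598.

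Detection of a partner depends on depth, and cells with Ret were deeper: their medians were 17237 and 12596 UMIs, against 12682 and 10059 in cells without Ret. Over all cells Gfra1 was found in 57.4% of Ret cells and 47.6% of the others with supplements, and in 70.4% and 54.9% without. The level of Gfra1, which does not grow with depth, was 99.0 CPM in Ret cells and 97.1 in the others with supplements, with overlapping intervals. Without supplements it was 166 CPM (159.6 to 172) against 118 (114 to 122). Within neuron-like cells Gfra1 was higher beside Ret in both libraries, at 103 against 75.4 CPM and at 174 against 132 CPM. Within cluster 8 the difference was smaller, 218 against 203 CPM with supplements, where the intervals overlapped, and 205 against 175 CPM without, where they overlapped as well. In cluster 9 with supplements it was lower beside Ret, at 82.4 against 139 CPM. In cells of like depth with supplements, the shares with Gfra1 overlapped between Ret cells and the others in all 4 ranges of depth. Without supplements they were separate from 10000 to 20000 UMIs (75.0% against 62.3%) and above (91.3% against 78.5%), and overlapped in the 2 shallower ranges. After thinning to 1000 UMIs, 9 of 119 Ret cells with supplements had Gfra1 (7.56%, against 8.78% of other cells) and 26 of 196 without (13.3% against 12.0%). Those shares overlap widely and at this depth no difference was detectable.

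**Figure D5:**
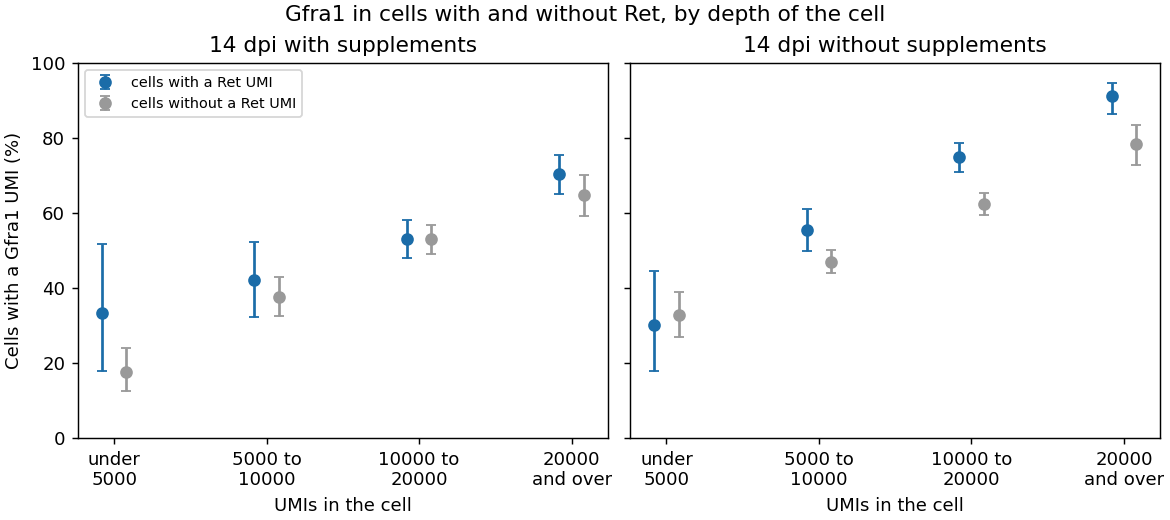
Share of cells with a Gfra1 UMI among cells with and without a Ret UMI, by the number of UMIs in the cell, in both 14 dpi libraries. Bars are exact 95% binomial intervals. With supplements the shares are 53.0% and 53.0% in cells of 10000 to 20000 UMIs, and without supplements they are 75.0% and 62.3%.

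The levels of the rarer co-receptors beside Ret were read in neuron-like cells. Gfra2 with supplements was at 4.47 CPM in Ret cells and 2.40 in the others, with overlapping intervals. Gfra4 was at 8.72 against 6.71 CPM with supplements and 13.3 against 9.96 CPM without, with overlapping intervals. Gfra3 was at 14.1 against 14.8 CPM and at 3.18 against 3.73 CPM. None of the 3 was separate from its level in neuron-like cells without Ret in either library. The alternative GDNF co-receptor Ncam1, an adhesion molecule, was present in 97.1% and 95.2% of Ret cells. It was also in 95.9% and 92.9% of all neuron-like cells and in 90.3% and 82.5% of all kept cells, which include cells shallower than the Ret cells. Its high share beside Ret is therefore not particular to Ret cells.

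Receptors of other factors were read beside Ret in neuron-like cells. Ntrk3 was at 73.6 CPM in Ret cells against 50.8 in the others with supplements, and at 36.8 against 22.0 without. Cntfr was at 31.6 against 24.5 CPM and at 50.9 against 31.0 CPM. In these 4 contrasts the intervals were separate. They pool clusters that differ in these genes. A Ret UMI was in 73.0% and 62.6% of cluster 8 cells, against 45.9% in cluster 1 with supplements and 42.7% in cluster 3 without. Ntrk3 was at 143 and 71.5 CPM in cluster 8, against 53.6 and 11.2 CPM in clusters 1 and 3. Cntfr was at 29.4 and 64.0 CPM, against 28.6 and 31.4 CPM. The part of the cluster mix in the contrasts was not tested. Lifr in neuron-like cells with and without Cntfr had overlapping intervals, at 10.9 against 9.29 CPM with supplements and at 9.37 against 9.98 CPM without. Il6st was at 18.7 against 19.4 CPM with supplements, with overlap, and was higher beside Cntfr without, at 28.0 against 21.3 CPM. Over all kept cells, both Lifr and Il6st were seen in 8.70% of Cntfr cells with supplements and in 8.78% without, and neither in 59.0% and 54.9%. Among neuron-like cells with Cntfr, both were seen in 6.96% and 4.28%, and neither in 60.0% and 60.5%. The counts that follow are over all kept cells. Ntrk2 and Ngfr met in 2, 3 and 0 cells of the 3 libraries. A Ret and Gfra pair, Cntfr or Ntrk2, at least 1 of them, was found in 958 cells of the library with supplements (41.4%), in 1445 of the library without (38.9%) and in 25 of the 4 dpi library (0.557%). Cells with the Ret and Gfra pair and Cntfr together were 8.47%, 9.58% and 0 of 4492. The pair, all 3 CNTF subunits and Ntrk2 met in 0, 2 and 0 cells. A transcript that was present but not sampled counts as missing in these shares.

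The wider pathways were read from 5 further lists of 64 genes, whose counts are to be read against the 9.97% of all genes that were 2-fold apart over all cells. In the comparison without over with supplements over all cells, 1 of 5 shared subunits at 10 CPM was 2-fold higher, the syndecan Sdc3, which binds GDNF family ligands (110 against 34.7 CPM, log2 ratio 1.67). Among the ligands, Bdnf was at 0.01. Of 14 adaptors and kinases, the docking protein Shc3 was higher (24.6 against 9.13 CPM, 1.43), while Jak1 (0.02) and Stat3 (0.41), which act below gp130, were not 2-fold apart. Of 4 receptor modulators, the sortilin family member Sorcs3 was lower (4.51 against 16.5 CPM, -1.87). Of 11 response genes, the immediate early genes Egr1 (1.15) and Fos (1.26) were higher and none was 2-fold lower, with Dusp6 at -0.72 and Spry2 at -0.53, both feedback inhibitors of the ERK pathway. The medians of the subunits, adaptors, modulators and response genes were 0.52, 0.27, 0.11 and 0.31, beside -0.03 over all genes tested. In neuron-like cells the same medians were 0.54, 0.26, -0.03 and 0.06, beside 0.04 over all genes. In neuron-like cells Sdc3 (1.64), Shc3 (1.59), Sorcs3 (-1.58) and Fos (1.57) remained past 2-fold and Egr1 (0.84) did not.

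Between the times, the same lists differed in other genes, given as log2 ratios of 14 dpi with supplements over 4 dpi, where 25.5% of all genes were 2-fold apart. Among the modulators, Sorcs3 (6.07), Lingo1 (2.63) and Bex3 (1.60) were higher at 14 dpi and Lrig1 (-1.07), a negative regulator of receptor kinases, was lower. Of the shared subunits Ncam1 was higher (462 against 138 CPM, 1.74), and Lifr (-0.80) and Il6st (0.02) were not 2-fold apart. Of 13 adaptors and kinases, Kidins220, a scaffold of Trk receptors, was higher (1.30) and Tyk2 lower (-1.47). Of 11 response genes, 5 were higher, among them Vgf (3.73), a neuronal secreted peptide precursor induced by BDNF, and Spry2 (1.69), and Spred1 was lower (-1.05).

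The genes with the pattern most like each receptor were found over 17 sums of cells, each a cluster of at least 50 cells of a library, by Pearson r of log2(CPM + 10). For Ret they were Eid1 (0.98), Clcn4 (0.97) and Plcb1 (0.97). For Ntrk3 they were 9330159F19Rik (0.97), Cntn1 (0.97) and Kcnc1 (0.97), and for Cntfr they were Eif4a2 (0.95), Bace1 (0.94) and Lrrc58 (0.94). For Gfra3 they were Txndc15 (0.91), Ebp (0.91) and Actb (0.90). Gfra1 had no close match, the highest being BC004004 at 0.79. The sums share libraries and differ in depth, and Gfra2, Gfra4, Ntrk2 and Ngfr were at 10 CPM in too few of them to be compared.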

How the data were processed

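The authors deposited raw UMI counts per gene and cell barcode for each of the 3 libraries, made with Cell Ranger 6.1.1 per the file headers and with build GRCm39 per the submitters' processing notes. Further settings are not given in the sources used here. Counts of features with the same symbol were summed. Cells with at least 500 genes and at most 20% mitochondrial UMIs were kept. Scrublet called 3, 1 and 1 doublets, which is too few to have worked, so no doublets were removed. Cells were clustered with scanpy 1.11.5 (2000 variable genes, 30 components, 15 neighbours, Leiden resolution 1) without the 73 listed genes. Clusters were named from the mean log2 level of 18 neuronal and 20 fibroblast markers (a difference of at least 2, with at least 15 markers detected), except that a cluster with more markers of another listed cell type than of its own among its top 10 genes (cluster 4), a cluster of cells far shallower than their library with no own marker there (cluster 13), or one under 50 cells stayed unnamed, and clusters led by cell cycle markers were called cycling. A difference was called at 2-fold among genes at 10 CPM in either library. Intervals are 95% and exact (Poisson for levels, Clopper-Pearson for shares and for UMI splits). Cells were thinned to 1000 UMIs, which left out 31, 22 and 113 shallower cells. A share of 0 was given the limit of 3 cells. The receptors and gene lists were chosen with earlier results of these data known. The named genes were all 9 receptors and, of each other list, members past 2-fold or otherwise the 2 at the highest level; further list members were named after their values were seen. The ratio and thinning steps were tested on simulated data. Results of some list members are not reported here.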

Additional observations from a re-analysis of the deposited data

Results flagged for a closer look

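Ret, Gfra1 and Ntrk2 had log2 ratios of opposite sign in different cells of the same 2 libraries, each with a counting interval clear of 0 that takes UMIs as independent. The difference between cultures was not tested, since each condition was 1 library. Ret without over with supplements was at -0.82 in the cycling cluster 10 and at 0.30 in neuron-like cells. In cluster 10 it had 54 UMIs with and 50 without supplements, of which 5 cells held 50% and 48%. Gfra1 was at -0.25 in cluster 10 and at 0.76 in neuron-like cells. In cluster 10 Tubb3 was at 114 CPM without and 457 CPM with supplements, and Col1a1 at 549 and 106 CPM; their part was not tested. Ntrk2 was at -2.80 in cluster 11 (33 UMIs in 4 cells with supplements, 3 UMIs without), where 1 cell held 30 of the 33 and the others 3, and at 1.39 in neuron-like cells (12 UMIs with and 27 without).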

How the results depend on the processing

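Across the alternatives, Gfra3 and Ntrk3 were the receptors called without over with supplements in all kept cells, and Gfra2 and Ngfr joined them at a floor of 2 CPM, which made 4. In the time comparison the number of calls stayed within 1.5 times. In neuron-like cells it did too, but with other genes: a Leiden resolution of 0.5 gave Gfra4, Ntrk3 and Cntfr, from 26 cells with supplements, and reversed Gfra3 (0.99), and cells chosen by Tubb3 gave Gfra1, Gfra3 and Gfra4. Of 216 ratios recomputed, 192 moved by no more than their interval, 23 moved further and 1 reversed. Of 54 shares of cells with a receptor UMI, 20 moved beyond their interval, all of them when cells were thinned to 2000 UMIs. The share of Ret cells with a Gfra UMI depends on depth. With and without supplements it was 49.1% and 59.2% when 2 UMIs of either were asked for, 9.24% and 14.8% after thinning, 36.4% and 34.0% in cells under 5000 UMIs, 51.0% and 60.3% from 5000 to 10000, 63.2% and 78.0% from 10000 to 20000, and 80.7% and 93.7% above. Leaving out the 5% of cells with the highest doublet scores, an alternative chosen after seeing the data, changed no call. No paired analysis was possible because each group was 1 library, and for the same reason no replicate could be left out.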
